A study of Mus musculus with 3 samples.

Results

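The subject is a family of 7 globin genes, 3 of them embryonic (Hbb-bh1, Hbb-y and Hba-x) and the others adult (Hba-a1, Hba-a2, Hbb-b1 and Hbb-b2), in mouse embryos of stage E8.75 (embryonic day). They were found on the arrays by the gene name in the authors' deposited table or by the RefSeq accession of the probe, which gave 8 probes out of 55681 non-control probes. Hbb-y has 2 probes, called A (A_55_P1967478) and B (A_55_P1967481) here, and each other gene has 1. All 8 globin probes were well above background and were tested, among 31598 probes from 23554 genes and other transcripts.

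Each of 3 Agilent arrays with 2 colours held RNA of Brpf1-deficient embryos in the Cy5 channel and RNA of wild-type embryos in the Cy3 channel, as labelled, and the arrays are numbered as pairs 1 to 3. No dyes were swapped, so dye and genotype cannot be told apart. The embryos were untreated. The labels give no strain, no age beyond the embryonic day, no word on whether the mutation is whole-body or how it was made, and no number of embryos per RNA, so the p-values measure the spread between these 3 pairs. Brpf1 encodes a scaffold protein of histone acetyltransferase complexes. Its only probe was brighter in the channel labelled Brpf1-deficient, with log2 ratios of 2.01, 1.43 and 1.06 in pairs 1, 2 and 3 (mean 1.50 ± 0.19, SE; limma adjusted p = 0.0595). Where that probe lies relative to the disrupted part of the gene was not analysed here, and a probe outside that part checks nothing. The ratio in the authors' deposited table also runs against Cy5 over Cy3 (correlation -0.920), and which channel is on top there is not stated. Whether the channels are labelled as they were hybridised was not tested. Every direction below is that of the channels as labelled, and all would turn if the labels were exchanged.

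Haemoglobin is built from alpha-like and beta-like globin chains, each of which holds a haem group. In the mouse the first wave of red blood cells, the primitive erythroid cells, arises in the blood islands of the yolk sac and enters the circulation when the heart begins to beat. These cells make the embryonic chains zeta (Hba-x), beta-H1 (Hbb-bh1) and epsilon-y (Hbb-y). As they mature, the balance shifts from beta-H1 towards epsilon-y and from zeta towards the adult alpha chains, while the adult beta chains belong mainly to definitive red cells of the fetal liver, bone marrow and mother. In the RefSeq gene table the alpha-like genes lie together on chromosome 11 in the order Hba-x, Hba-a1, Hba-a2, with the theta genes Hbq1b and Hbq1a each following an adult alpha gene. The beta-like genes lie together on chromosome 7, where Hbb-bh1 and Hbb-y neighbour each other. Hbb-b1 and Hbb-b2 are adult beta genes of a haplotype that the reference strain does not carry, which has Hbb-bt and Hbb-bs in their place.

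The promoters of 4 of the 7 genes are in the RefSeq table used here (GRCm38.p6), and 3 are shown because their genes are compared below. Each runs from 250 bases before the start of the gene to 50 after it. Capitals mark short motifs searched on both strands. The letters TGATAA are the core bound by GATA factors in red cells, and AGATAA is the other form of that core that was searched. The letters CACCC are bound by KLF1 in adult beta globin promoters, and CCAAT is a box common to many promoters. The letters TATAAA are those of a TATA box, and a variant of it that can overlap them, ATAAAA, was searched too.
Hbb-y, chr7:103853158-103853457, minus strand: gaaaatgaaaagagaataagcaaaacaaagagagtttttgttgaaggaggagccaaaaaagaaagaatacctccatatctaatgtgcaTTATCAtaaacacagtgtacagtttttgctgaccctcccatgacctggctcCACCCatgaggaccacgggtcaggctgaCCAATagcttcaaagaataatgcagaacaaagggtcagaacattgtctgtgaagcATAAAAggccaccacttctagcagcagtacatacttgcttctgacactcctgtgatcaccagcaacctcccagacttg
Hba-x, chr11:32276350-32276649, plus strand: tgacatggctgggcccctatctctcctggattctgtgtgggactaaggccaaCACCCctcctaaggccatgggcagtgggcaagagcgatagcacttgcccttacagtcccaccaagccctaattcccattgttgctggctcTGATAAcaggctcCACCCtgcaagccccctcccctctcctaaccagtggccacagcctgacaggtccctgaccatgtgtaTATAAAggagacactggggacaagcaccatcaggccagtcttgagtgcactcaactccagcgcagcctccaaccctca
Hba-a1, chr11:32283422-32283721, plus strand: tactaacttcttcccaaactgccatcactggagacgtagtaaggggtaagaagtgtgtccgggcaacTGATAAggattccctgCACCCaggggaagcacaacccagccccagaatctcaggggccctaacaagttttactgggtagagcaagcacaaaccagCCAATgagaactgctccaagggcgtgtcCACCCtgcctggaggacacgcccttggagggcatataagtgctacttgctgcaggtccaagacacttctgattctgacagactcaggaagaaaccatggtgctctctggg

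Each of the 4 promoters (these and that of Hba-a2) held the letters TGATAA once, on the minus strand in Hbb-y, where they read TTATCA above, and on the plus strand in the others. Of all 32851 promoters in the table, 9.05% held them on either strand. CACCC occurred in all 4 and in 57.5% of all promoters. AGATAA was in none of the 4 windows and in 11.2% of all. CCAAT was in Hbb-y, Hba-a1 and Hba-a2 and in 37.4% of all, TATAAA was in Hba-x and in 13.6% of all, and ATAAAA was in Hbb-y and in 18.5% of all. The promoters of Hba-a1 and Hba-a2 share a run of 297 identical bases, while the longest run shared by any other pair of the 4 was 10 bases. The authors' deposited table also lists the transcripts of both adult alpha genes as hits of each adult alpha probe, so the arrays do not tell Hba-a1 and Hba-a2 apart.

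The globins were among the brightest signals on the arrays, and in most of them the ratio of the channels differed widely from pair to pair. No globin spot was saturated. The brightest, Hbb-bh1 in Cy5 of pair 3, reached 73.2% of the scanner's saturation value. Mean log2 intensity over both channels was between 17.16 and 17.60 for the 6 probes of Hbb-bh1, Hbb-y, Hba-x, Hba-a1 and Hba-a2, which is above the limit of 17 that 645 of the probes tested passed. It was 13.89 for Hbb-b1 and 11.58 for Hbb-b2. Of all 8 globin probes, 0 passed the adjusted threshold of 0.05 (limma, Benjamini-Hochberg over 31598 probes), against 0.813% of all probes, 37.2% of those above the bright limit (higher in Cy5) and 0.0549% of those up to it. At an unadjusted p under 0.05 there were 2, Hbb-bh1 and Hba-x, against 16.2% of all probes.

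**Figure D1:**
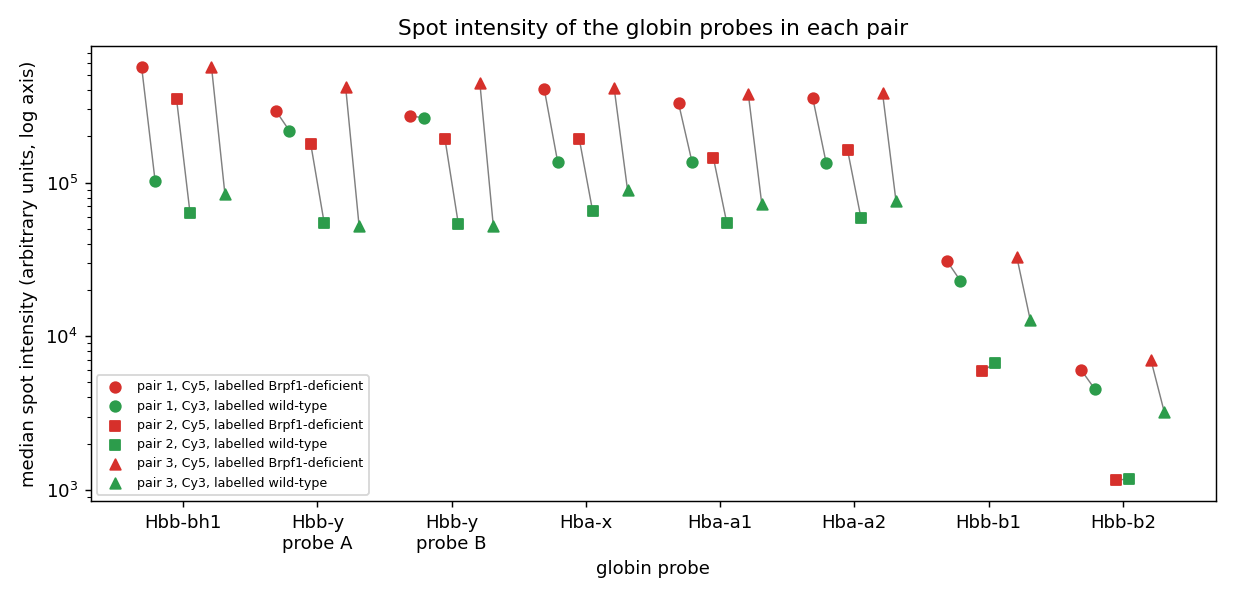
Median spot intensity (arbitrary units, log axis) of each globin probe in each pair. Red is Cy5, labelled Brpf1-deficient, green is Cy3, labelled wild-type, and a line joins the channels of 1 pair. For the Hbb-y probes the channels lie close together in pair 1 and far apart in pair 3.

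Hbb-bh1, the beta-H1 chain of early primitive red cells, was brighter in Cy5 in every pair. With a loess span of 0.3 it was the 1 globin probe with normalized ratios of the same sign in all pairs, as 42.7% of all probes had. With median centring the probes of Hba-x, Hba-a1 and Hba-a2 also had positive ratios in all pairs. In pair 1 Hbb-bh1 had -0.80 with a span of 0.02 and -0.21 with the scanner software's processed signals. Its median spot intensity was 562744, 349035 and 569963 in Cy5, labelled Brpf1-deficient, against 102773, 63720 and 84688 in Cy3, labelled wild-type, in pairs 1, 2 and 3. Over all probes Cy5 was the brighter channel too, with medians of 241.5, 243 and 220 against 139, 144.5 and 134 in Cy3. The channels of Hbb-bh1 did not overlap before normalization, nor did those of Hba-x, Hba-a1 and Hba-a2. The share of all probes without such overlap was not counted. Loess normalization (span 0.3) takes out the trend of the ratio with brightness. After it the log2 ratios of Hbb-bh1, Cy5 over Cy3, were 0.83, 1.58 and 1.42. Their mean was 1.28 ± 0.17 (SE, n = 3; 95% interval 0.85 to 1.71), a 2.42-fold difference. Its limma adjusted p was 0.0616 over all probes. With 1 probe for each gene, the brightest, the same ratio had an adjusted p of 0.0419, and over 11 alternatives the adjusted p lay between 0.00512 and 0.783. In that fit by gene, 1.29% of all genes were higher in Cy5 at the threshold, and 51.5% of the genes above the bright limit were, so a call is common at this brightness. The probes above the bright limit had median ratios of 0.87, 0.68 and 0.69 in pairs 1, 2 and 3.

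Hbb-y, the epsilon-y chain that gains on beta-H1 as primitive red cells mature, had ratios of opposite sign in different pairs. Probe B had 271839, 191933 and 444124 in Cy5, labelled Brpf1-deficient, against 265004, 53527 and 52297.5 in Cy3, labelled wild-type, in pairs 1, 2 and 3. The wild-type value of pair 1 thus lay among the values of the other channel, while the other wild-type values lay below all of them. Probe A had 293555, 178120 and 417430 in Cy5 against 218426, 54632 and 52220 in Cy3. The log2 ratios of pairs 1, 2 and 3 were -1.62, 1.08 and 1.83 for probe B and -1.21, 0.95 and 1.75 for probe A, so the probes gave the same picture. The means were 0.43 ± 0.67 (SE; limma adjusted p = 0.764; 95% interval -1.31 to 2.18) and 0.50 ± 0.57 (adjusted p = 0.677; 95% interval -0.98 to 1.97). The SD over pairs was 1.82 for probe B and 1.53 for probe A. Of all probes tested, 0.12% had a larger SD than probe B and 0.237% a larger SD than probe A.

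Hba-x, the zeta chain and the embryonic partner of the beta-like chains, had 404622, 193758 and 415332 in Cy5, labelled Brpf1-deficient, against 135847, 65414 and 89797 in Cy3, labelled wild-type. As for Hba-a1 and Hba-a2, every Cy5 value lay above every Cy3 value before normalization, when Cy5 was brighter over all probes too. After it the log2 ratios were -0.04 in pair 1, 0.77 in pair 2 and 0.91 in pair 3, and they averaged 0.55 ± 0.21 (SE; limma adjusted p = 0.303; 95% interval 0.01 to 1.08).

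The adult alpha genes Hba-a1 and Hba-a2, which primitive red cells also express as they mature, followed Hba-x. The Hba-a1 probe had 329479, 144717 and 378308 in Cy5, labelled Brpf1-deficient, against 137134, 54533 and 73054 in Cy3, labelled wild-type. Its log2 ratios were -0.33, 0.68 and 1.10 in pairs 1, 2 and 3 (mean 0.48 ± 0.28, SE; limma adjusted p = 0.440), and those of the Hba-a2 probe were -0.20, 0.72 and 1.05 (mean 0.52 ± 0.25; adjusted p = 0.375). In each pair these probes differed from each other by at most 0.13 on the log2 scale.

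The adult beta genes were far dimmer, and their ratios were negative in pairs 1 and 2. Hbb-b1 had 30915.5, 5924 and 32975.5 in Cy5, labelled Brpf1-deficient, against 22992.5, 6670.5 and 12845 in Cy3, labelled wild-type, and the channels overlapped. Its log2 ratios of -0.65 in pair 1, -0.34 in pair 2 and 0.49 in pair 3 averaged -0.17 ± 0.23 (SE; limma adjusted p = 0.732; 95% interval -0.77 to 0.43). Hbb-b2 had 6034, 1150 and 6998 in Cy5 against 4547, 1183 and 3194 in Cy3, with ratios of -0.40, -0.30 and 0.43 (mean -0.09 ± 0.18; adjusted p = 0.822). Hbb-bt, the adult beta gene of the reference strain and no member of the set, had -0.41, -0.49 and 0.03. Adult beta transcripts are close to identical and the probe sequences were not analysed here, so the probes may not tell these genes apart.

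**Figure D2:**
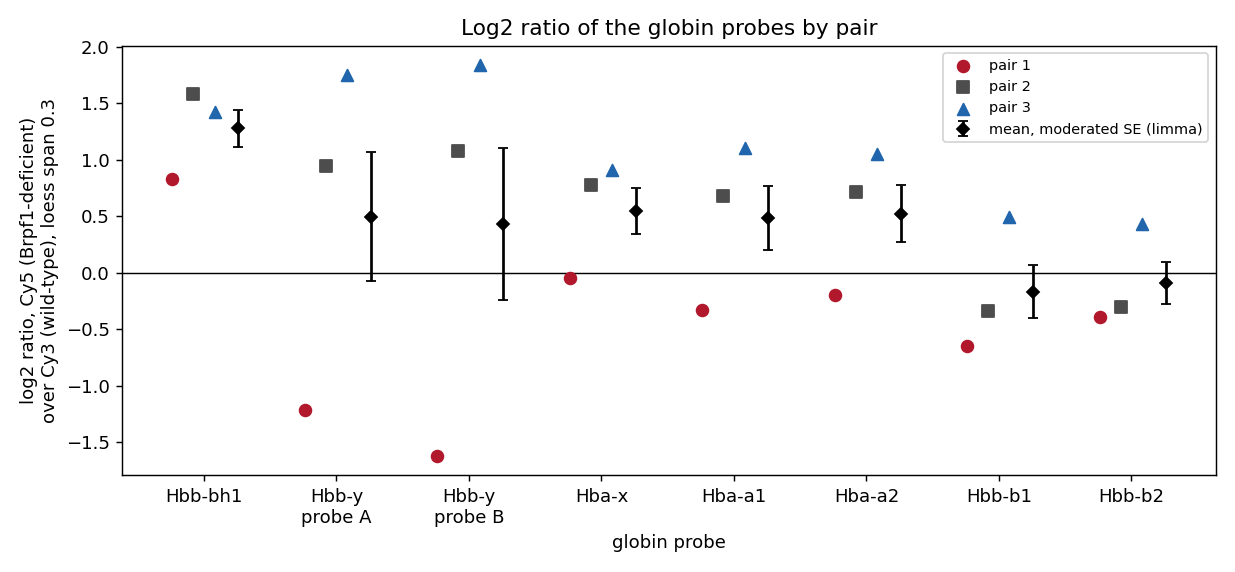
Log2 ratio of Cy5 (labelled Brpf1-deficient) over Cy3 (labelled wild-type) after loess with a span of 0.3, for each globin probe and pair, with the mean and its moderated SE in black (n = 3). Pair 1 is the lowest point of every probe, and the Hbb-y probes spread most, from -1.62 to 1.83 for probe B.

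Pair 1 was the lowest of the pairs for 8 of 8 globin probes. This pattern was chosen after the values were seen. The same held for 24.3% of all probes tested and for 3.57% of the 645 probes above the bright limit, where 6 of the 23 such probes were globins. The other bright probes thus had their highest median ratio in pair 1, where the globins had their lowest ratios. With a loess span of 0.02, which follows the trend with brightness more closely, the count was again 8 of 8 (25.9% of all probes and 18.6% of the bright ones). With median centring and no loess it was 6 of 8 (16.6% and 1.4%), and the exceptions were Hbb-b1 and Hbb-b2, which were lowest in pair 2. Across 11 alternatives the limma adjusted p of Hbb-y probe B lay between 0.400 and 0.981.

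**Figure D3:**
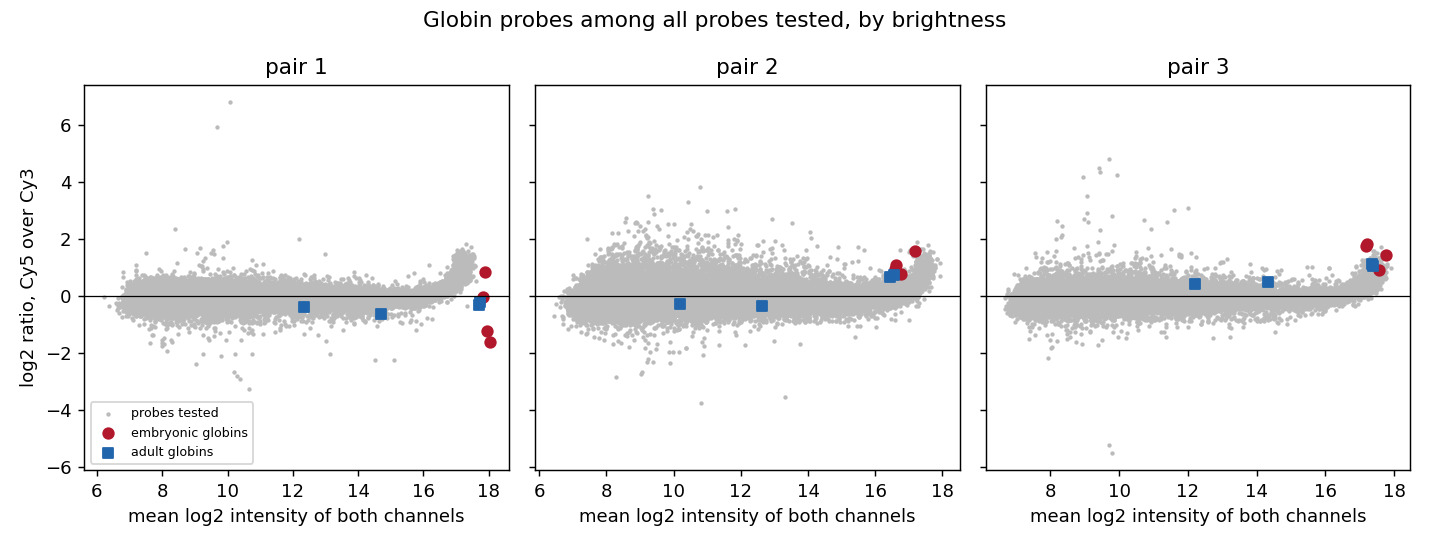
Log2 ratio of Cy5 over Cy3 against the mean log2 intensity of both channels for all probes tested (grey), the embryonic globin probes (red circles) and the adult ones (blue squares), 1 panel a pair. The grey cloud bends upwards at its bright end, and in pair 1 the 6 bright globin probes lie beyond that end and below the bend.

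The size of the bright ratios, and for 5 probes the sign of the mean, depended on how the bright end of each array was normalized. In pair 1 no other probe tested was as bright as the 6 bright globin probes, so the trend there was fitted at the edge of the data. In pairs 2 and 3, 1154 and 489 other probes reached the brightness of the dimmest of the 6. The normalization lowered the log2 ratios of these 6 probes by 1.59 to 1.66 in pair 1, by 0.73 to 0.87 in pair 2 and by 1.25 to 1.33 in pair 3. With median centring, which leaves the trend in, Hbb-bh1 had 1.69, 1.87 and 2.10 (mean 1.89 ± 0.15, SE; limma adjusted p = 0.00512), and Hba-x had a mean of 1.12 ± 0.18 (adjusted p = 0.0249; 0.0249 to 0.942 over 11 alternatives). With a span of 0.02 Hbb-bh1 had -0.80, 1.10 and 0.39 (mean 0.23 ± 0.37; adjusted p = 0.783), and the means of Hbb-y, Hba-x, Hba-a1 and Hba-a2 were below 0. The ratios of Hbb-b1 and Hbb-b2 lie below the bend, and with a span of 0.02 they were -0.11 ± 0.23 and -0.07 ± 0.18.

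**Figure D4:**
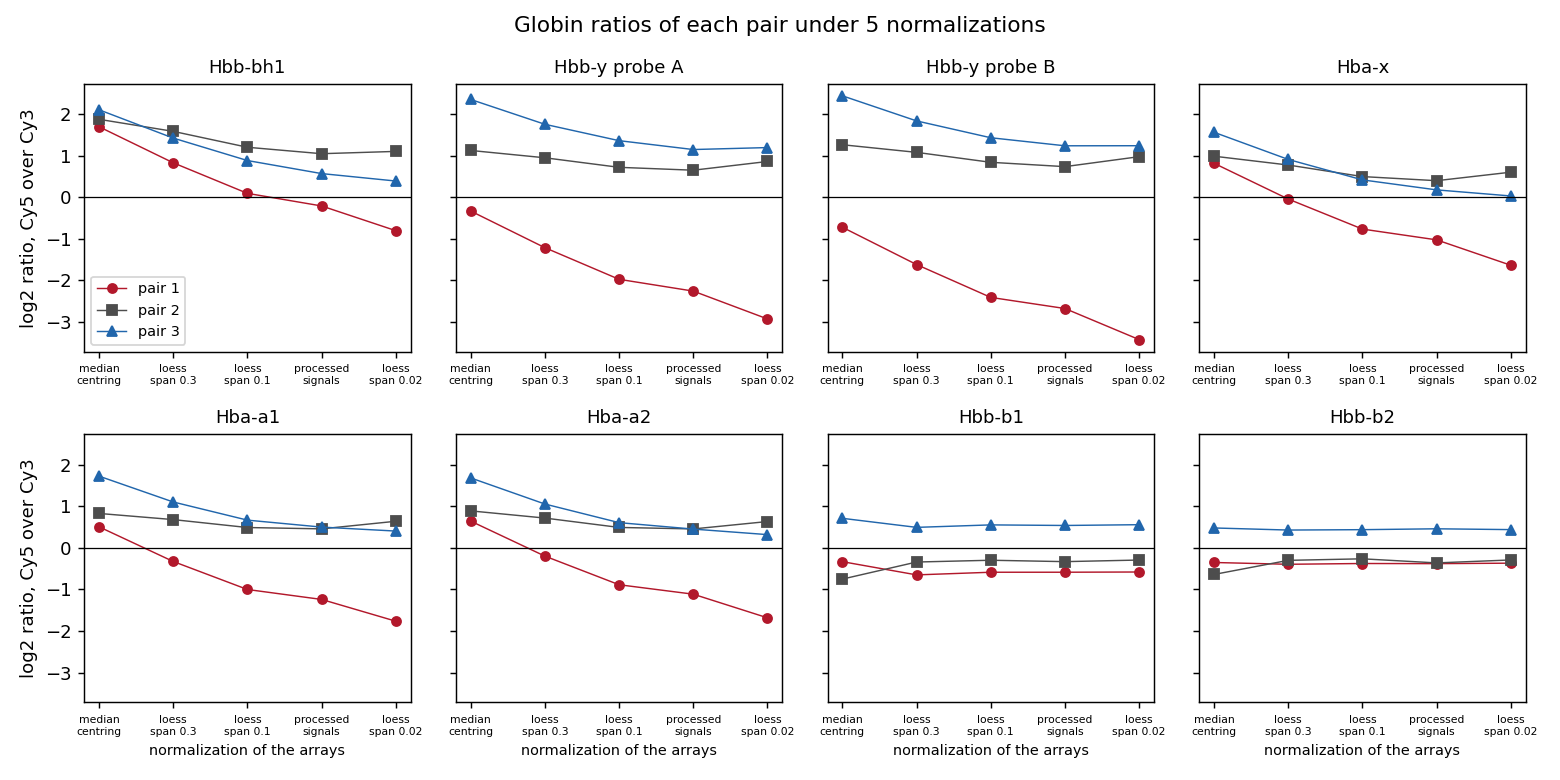
Log2 ratio of Cy5 over Cy3 of each globin probe in each pair under 5 normalizations, ordered by how far they lower the bright ratios of pair 1. The bright probes shift together with the normalization, the order of the pairs for the Hbb-y probes stays, and Hbb-b1 and Hbb-b2 hardly move after any of the loess fits.

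Differences between globins of like brightness within a pair moved less with the normalization than the ratios did. The log2 ratio of Hbb-bh1 minus that of Hbb-y probe B was 2.45, 0.50 and -0.41 in pairs 1, 2 and 3. It was 2.42, 0.61 and -0.34 with median centring and 2.62, 0.13 and -0.85 with a span of 0.02. Against probe A it was 2.04, 0.64 and -0.33. In pair 1 beta-H1 was therefore higher relative to epsilon-y in the channel labelled Brpf1-deficient than in that labelled wild-type, and in pair 3 it was lower. The corresponding alpha-like difference, Hba-x minus Hba-a1, had the same signs but was smaller, with 0.28, 0.09 and -0.19, and with a span of 0.02 it was 0.13, -0.04 and -0.37. With 3 pairs of mixed sign these differences are descriptions and carry no test.

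Set on 1 scale across arrays (loess, then Aquantile), the wild-type level was highest in pair 1 for every globin probe. It stood furthest above the other wild-type levels for the probes of Hbb-y, the epsilon-y gene. For comparison, Hba-x had log2 levels of 17.83, 16.37 and 17.05 in Cy3 of pairs 1, 2 and 3. The normalized log2 level of Hbb-y probe B was 17.15, 17.15 and 18.10 in Cy5 of pairs 1, 2 and 3 (mean 17.47 ± 0.55, SD), against 18.77, 16.07 and 16.27 in Cy3 (17.04 ± 1.51). The larger SD of the wild-type channel rests on pair 1, since in the other pairs its levels lay closer together than those in Cy5. Hbb-bh1 had 18.25, 17.91 and 18.45 in Cy5 (18.21 ± 0.27) against 17.42, 16.33 and 17.03 in Cy3 (16.93 ± 0.55). Hbb-b1 had 14.28, 12.47 and 14.67 in Cy5 (13.81 ± 1.17) against 14.93, 12.81 and 14.18 in Cy3 (13.97 ± 1.07), and both channels were lowest in pair 2. These levels are log2 intensities of single probes and do not rank the genes against each other. In these bulk RNAs, a different number of red cells and a different amount of globin RNA per cell cannot be told apart.

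Other genes of the red cell lineage, at lower brightness, showed the low ratios of pair 1 as well. Of 14 erythroid markers 13 were measured (Ahsp was not on the array). The median of their log2 ratios was -0.90 in pair 1, 0.25 in pair 2 and 0.16 in pair 3. In limma 0 were past the adjusted threshold and 0 at an unadjusted p under 0.05, against 0.813% and 16.2% of all probes. Pair 1 was the lowest for 10 of the 13, against 24.3% of all probes tested. In other lists it was lowest for 4 of 5 megakaryocyte, 7 of 11 visceral endoderm, 5 of 8 endothelial and 5 of 8 cardiomyocyte genes. The counts were 3 of 6 for macrophage, 2 of 4 for leukocyte, 2 of 5 for trophoblast and 2 of 7 for decidua genes. With a span of 0.02 the medians of the 13 erythroid markers were -0.88, 0.25 and 0.18. Slc4a1, the band 3 anion exchanger of the red cell membrane, had 6018, 2807 and 13777 in Cy5, labelled Brpf1-deficient, against 13630, 1859 and 4955 in Cy3, labelled wild-type. Its log2 ratios were -2.05, 0.40 and 0.73 (mean -0.30 ± 0.57, SE; adjusted p = 0.802). The erythroid markers for which pair 1 was not the lowest were Sptb, Ank1 and Gata1. Ank1, the ankyrin of the red cell membrane skeleton, had -0.04, -0.12 and 0.44. The summed normalized level of the erythroid markers was 41115, 14957 and 47043 in Cy5 against 75724, 11317 and 43055 in Cy3. It was lowest in pair 2 in both channels. The part that a different number or stage of red cells had in the globin ratios was not tested.

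**Figure D5:**
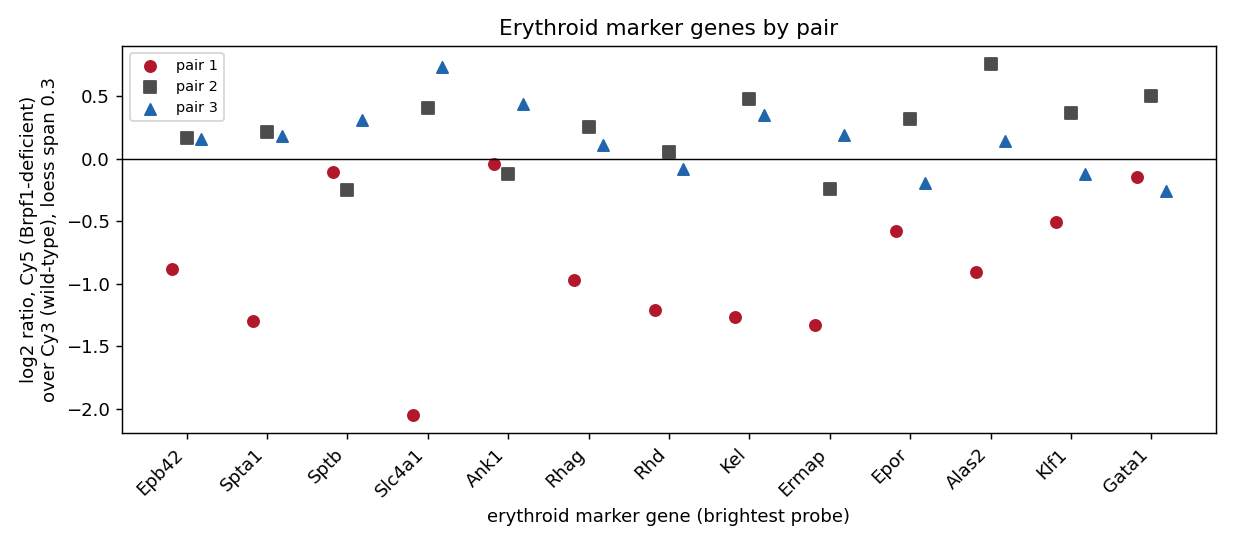
Log2 ratio of Cy5 (labelled Brpf1-deficient) over Cy3 (labelled wild-type) for the 13 erythroid markers measured, brightest probe each, by pair. Pair 1 is the lowest point for 10 of the 13, furthest for Slc4a1 at -2.05.

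Genes that supply haem and iron to the globins did not pass the adjusted threshold, which 0.813% of all probes passed. An unadjusted p under 0.05 (limma) was held by 16.2% of all probes. None of 13 haem synthesis genes passed (limma; 2 at an unadjusted p under 0.05), and their median log2 ratio was -0.07, beside -0.02 for all probes tested. Pair 1 was the lowest for 10 of the 13, against 24.3% of all probes tested. Alas2, the erythroid first enzyme of haem synthesis, had -0.90, 0.76 and 0.14 in pairs 1, 2 and 3, and the others named by smallest p were Abcb6, a porphyrin transporter (-0.31 ± 0.10, SE, adjusted p = 0.257), Ppox, protoporphyrinogen oxidase (-0.33 ± 0.11, 0.262), and Urod, uroporphyrinogen decarboxylase (-0.19 ± 0.09). None of 10 iron supply genes passed (2 at an unadjusted p under 0.05; median 0.12). The ferritin chains Ftl1 (0.77 ± 0.10, adjusted p = 0.0595) and Fth1 (0.71 ± 0.12, adjusted p = 0.111) lie above the bright limit, and Tfrc, the transferrin receptor, had -0.38 ± 0.20.

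None of 23 regulators of globin genes passed, against 0.813% of all probes. Their median was -0.02, and 1 had an unadjusted p under 0.05 (limma), against 16.2% of all probes. That 1 was Myb (-0.24 ± 0.08, SE), a factor of definitive progenitors, followed by Tcf3, a partner of Tal1 (-0.27 ± 0.11), and Ctcf, which binds at the borders of the globin clusters (-0.26 ± 0.12). Klf1, the erythroid factor that activates adult beta globin, had -0.50, 0.36 and -0.12 in pairs 1, 2 and 3, and Gata1 had -0.15, 0.50 and -0.26. Bcl11a and Sox6, known as repressors of embryonic beta-like globins, had 0.15 ± 0.15 and 0.13 ± 0.14. In the list globin chaperone and redox, 0 of 7 measured passed (1 at an unadjusted p under 0.05; median 0.00), and those of smallest p were Prdx2, a peroxiredoxin abundant in red cells (-0.23 ± 0.08), Gpx1 (0.20 ± 0.08) and Cat, catalase (-0.36 ± 0.16). Of the other globins, 0 of 6 measured passed (0 at an unadjusted p under 0.05). The theta genes Hbq1b (-0.39, 0.61 and 0.63) and Hbq1a (-0.29, 0.24 and 0.43) had the signs of Hba-x, in whose cluster they lie. Hbb-bh2 had -0.28, 0.12 and -0.44, Cygb, cytoglobin, -0.32, 0.53 and 0.72, and Mb, myoglobin, 0.03, -0.35 and 0.14.

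All 11 markers of yolk sac visceral endoderm, which covers the blood islands, were measured and had a mean ratio above 0, with 0 past the adjusted threshold and 8 at an unadjusted p under 0.05 (limma), against 16.2% of all probes. Their mean log2 intensities lay between 13.67 and 17.04. Only Afp and Rbp4 lie above the bright limit, where probes had a median ratio of 0.74. No median ratio was computed for probes of the brightness of the others. The part that brightness had in the ratios of these markers was not tested. The share of all probes with a mean above 0 was not counted. The medians of the 11 markers were 0.20, 0.59 and 0.64 in pairs 1, 2 and 3. Their summed level was 895371, 714380 and 1033340 in Cy5 against 762841, 456937 and 579681 in Cy3. Among 15370 RefSeq-named genes, the 5 whose ratios over the 3 pairs lay closest to the mean of the embryonic globins (-0.28, 1.14 and 1.39) were Afp, Clec14a, Nppb, Cyp26b1 and Tslrn1. In pair 1 that mean averages unlike ratios, 0.83 for Hbb-bh1, -1.62 for Hbb-y probe B and -0.04 for Hba-x. Afp, alpha-fetoprotein, a marker of that endoderm and a bright probe, was nearest at a Euclidean distance of 0.18 with ratios of -0.34, 1.03 and 1.26. The distances of the others lay between 0.24 and 0.51. With a span of 0.02 Afp had -1.38, 0.90 and 0.79.

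Signs like those of the adult beta genes, negative in pairs 1 and 2 and positive in pair 3, were held by the medians of 6 of the marker lists (decidua, maternal blood leukocyte, trophoblast, megakaryocyte, macrophage and endothelial). The share of all probes with these signs was not counted. Within the lists, 4 of 8 endothelial, 2 of 6 macrophage, 2 of 5 megakaryocyte and 2 of 5 trophoblast genes measured had them. Of 7 decidua markers 4 had these signs, while Hoxa10 was positive in every pair and Pgr and Bmp2 were positive in pair 1. The decidua median was -0.17, -0.38 and 0.60 in pairs 1, 2 and 3, and Prl8a2, a decidual prolactin, had 28830, 3229 and 28469 in Cy5 against 22904, 32432 and 10551 in Cy3. The summed level of the decidua markers was 32032, 16156 and 42412 in Cy5 against 47007, 52328 and 29161 in Cy3. Of 10 markers of blood leukocytes 4 were measured, and S100a9, Camp, Ngp, Ltf, Cd79a and Ighm were not well above background. Of the 4, S100a8 (-0.90, -1.80 and 1.43) and Mpo (-0.56, -0.25 and 0.03), both granulocyte genes, had the signs of the adult beta genes, and Elane (0.08, 0.53 and 0.25) and Cd3e (0.22, 0.01 and 0.17) were positive in every pair. The summed level of the 4 was 1808, 1418 and 2204 in Cy5 against 2445, 1721 and 1369 in Cy3. The part of maternal tissue in the adult beta ratios was not tested.

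Of the other tissue markers measured, 0 of 8 endothelial, 0 of 6 macrophage, 0 of 5 megakaryocyte and 0 of 5 trophoblast genes passed. Over all probes 0.813% passed. At an unadjusted p under 0.05 (limma) there were 1, 3, 1 and 0, against 16.2% of all probes. Of 8 cardiomyocyte genes 1 passed, Myh6, which was lower at -0.70 ± 0.08 (SE). The medians of these lists over pairs, in that order, were 0.04, -0.12, -0.23, 0.06 and -0.28. By pair the medians were -0.12, -0.04 and 0.29 for endothelial, -0.18, -0.13 and 0.01 for macrophage, -0.53, -0.10 and 0.12 for megakaryocyte and -0.29, -0.40 and 0.51 for trophoblast genes. The summed endothelial level lay between 40875 and 45681 in Cy5 and between 37569 and 43986 in Cy3.

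The authors' deposited table lists 4 of the 8 globin probes among its 40000 rows. Its ratio, compared with Cy5 over Cy3 across 22165 shared probes tested here, has its sign turned below. In the authors' deposited table Hbb-bh1 stands at 1.24 (adjusted p = 0.336), Hba-x at 0.50 (0.555), Hba-a2 at 0.48 (0.609) and Hba-a1 at 0.44 (0.628).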

How the data were processed

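RNA of embryos was amplified, labelled and hybridised in 3 pairs to Agilent arrays with 2 channels, designed on mm9. The authors deposited scanner output, with median, background and processed spot intensity for each channel and a log10 ratio, made with Feature Extraction 10.7.3.1 per the file headers, and a gene table with log2 ratio, log2 mean level, p-value, adjusted p-value and the scores t and B, made with limma per the submitters' processing notes. The log10 ratio and the scores were not used. From the median intensities, background was corrected with normexp (offset 50), the trend of the ratio with brightness was taken out of every array by loess (span 0.3), and each probe was fitted with limma 3.58.1 in R 4.3.3 as log2 of Cy5 over Cy3, two-sided, with Benjamini-Hochberg adjustment and a threshold of 0.05. Control and outlier spots had weight 0. A probe was tested where 2 or more of the 3 arrays had it well above background in 1 channel, the same on each, and all gave a ratio. SEs and 95% intervals are limma's moderated ones. The number of arrays limits the precision. Levels by channel used loess and then Aquantile. Of 29123 RefSeq accessions on the array, 27656 matched 1 gene.

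The members and gene lists were chosen with earlier results of these data known. The genes named are all globin probes, other globins, Brpf1, up to 3 genes by smallest p in each pathway list, marker lists, and the 5 genes nearest to the embryonic globins over the pairs. Other pathway genes named (Alas2, Klf1, Gata1, Bcl11a and Sox6) and single markers were chosen after their values were seen. An erythroid marker of the list is not reported here. The procedure was tested on simulated data. Alternatives were the loess span, median centring, the scanner software's processed signals, no background correction, no filter, saturated spots left out, 1 probe a gene and each pair left out.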

Additional observations from a re-analysis of the deposited data

How the results depend on the processing

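Of the globin probes, 0 passed the threshold with a span of 0.3, 0.02 or 0.1, with the processed signals, without background correction, without saturated spots and without any 1 pair, while 2 did with median centring (Hbb-bh1 and Hba-x), 1 with no filter (Hbb-bh1, adjusted p = 0.042) and 1 with 1 probe a gene (Hbb-bh1). No spot of a non-control probe was saturated on any array, so leaving out saturated spots repeated the fit with a span of 0.3. Over all probes, 257 passed with a span of 0.3, 692 with median centring and 392 with no filter. None passed (0) with a span of 0.02 (smallest limma adjusted p 0.318), with a span of 0.1, chosen after seeing the data (0.235), with the processed signals (0.266), or without any 1 pair (0 to 0; at least 0.0526).

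The mean log2 ratio changed sign with a span of 0.02 for Hbb-y probe A (-0.29), Hbb-y probe B (-0.40), Hba-x (-0.34), Hba-a1 (-0.24) and Hba-a2 (-0.24), with a span of 0.1 for Hbb-y probe B (-0.047), and with the processed signals for Hbb-y probe A (-0.15), Hbb-y probe B (-0.24), Hba-x (-0.15), Hba-a1 (-0.10) and Hba-a2 (-0.070). The cause was not tested. With 1 pair left out the means ran from 1.12 to 1.50 for Hbb-bh1, from -0.13 to 1.35 for Hbb-y probe A, from -0.27 to 1.46 for Hbb-y probe B, from 0.36 to 0.84 for Hba-x, from 0.18 to 0.89 for Hba-a1, from 0.26 to 0.88 for Hba-a2, from -0.50 to 0.075 for Hbb-b1 and from -0.35 to 0.063 for Hbb-b2. Without pair 3 both Hbb-y means were negative, and without pair 1 the Hbb-y and alpha-like means were highest. The mean of Hbb-bh1 stayed above 0 under all 11 alternatives, though its pair 1 ratio was below 0 with a span of 0.02 and with the processed signals. Its mean could not change with no filter, with 1 probe a gene or without saturated spots, which keep the same ratios. The ratio within each array is the paired value, so every fit here is paired and no further block was possible. Dye balance was not tested, since no array was swapped.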
